A study of Mus musculus with 18 samples.

Results

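The genes described here are Bmp10, a ligand of the bone morphogenetic protein (BMP) family, and 9 genes of the pathway it acts through, measured by RNA-seq in mouse left and right atria. They are the receptor genes Acvr1, Acvrl1 and Bmpr2, the SMAD genes Smad6, Smad7 and Smad9, and the target genes Id1, Id2 and Id3. The 10 genes were chosen by symbol as members of 1 pathway, with earlier results of these same libraries known. Those results included the higher Smad7, Acvr1 and Id1 values in Zfhx3 KO than in WT left atria, which are therefore given below as a description. The deposited count table held 56691 gene IDs, of which 52073 could be given a symbol, and all 10 members were found.

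The study measured polyadenylated RNA from left and right atria of 9 mice, 3 wild type (WT), 3 Zfhx3 Het and 3 Zfhx3 KO, each mouse giving both atria. Zfhx3, a homeobox gene for a large transcription factor, lies at a locus associated with atrial fibrillation. No treatment was recorded. The labels name neither the altered part of Zfhx3, a Cre driver or the cells in which the gene was lost, nor strain, age or sex, and whole atrium was used, so a lower value can mean fewer cells of a type or less RNA per cell, which cannot be told apart. The columns for WT right atrium replicates 1 and 2 were identical and were counted as 1 library, which left 9 left atrial and 8 right atrial libraries, with 2 in the WT right atrial group and 3 in each other group.

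BMP ligands bind a complex of type I receptors, such as ACVR1 and ACVRL1, and type II receptors, such as BMPR2. The activated type I receptor phosphorylates SMAD1, SMAD5 and SMAD9, which join SMAD4, enter the nucleus and switch on target genes. Among the best known targets are the Id genes, whose products block basic helix-loop-helix transcription factors, and Smad6 and Smad7, whose products inhibit the pathway and close a negative feedback loop. BMP10 is made by cardiac muscle cells and, in the adult mouse heart, chiefly by the right atrium.

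Levels are given in CPM, counts relative to library size, scaled by the trimmed mean of M-values (TMM) method over all 17 libraries, which held between 18000583 and 33483085 counts each. Zfhx3 itself lay between 13.9 and 20.3 CPM in all 17 libraries, so a count over the whole gene did not check the genotype labels. All 5 WT libraries and the 4 of KO mice 2 and 3 had at most 1.1 CPM of Xist and at least 109 CPM of the Y-linked gene Ddx3y, whereas all 6 Het libraries and both libraries of KO mouse 1 had at least 575 CPM of Xist and no Ddx3y count. Het and WT mice thus differed in sex as well as genotype, and the effects of these in the comparison of Het with WT cannot be told apart.

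The promoters of 4 members are printed because these genes had the largest differences between atria or, for Id3, a difference in level between WT and Het left atria. The windows are RefSeq sequences of build GRCm38.p6, 250 bases before to 50 bases after the annotated start, and 7 of the 10 members had an entry (Id1, Smad7 and Acvrl1 had none). Capitals mark matches, on either strand, to the SMAD-binding words GGCGCC, GCCGNCGC and CAGAC, and to the palindrome GTCTAGAC, which overlaps no CAGAC match and was added after the Smad6 window had been read. Bmp10 lies on the plus strand at chr6:87428744-87429043, Smad6 on the minus strand at chr9:64022010-64022309, Smad9 on the plus strand at chr3:54755332-54755631 and Id3 on the plus strand at chr4:136143572-136143871.
Bmp10: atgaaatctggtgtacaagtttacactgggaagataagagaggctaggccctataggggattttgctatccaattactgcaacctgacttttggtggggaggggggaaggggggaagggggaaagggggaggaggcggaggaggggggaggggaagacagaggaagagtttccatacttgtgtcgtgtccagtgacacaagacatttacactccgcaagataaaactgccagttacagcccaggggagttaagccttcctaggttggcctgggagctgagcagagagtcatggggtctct
Smad6: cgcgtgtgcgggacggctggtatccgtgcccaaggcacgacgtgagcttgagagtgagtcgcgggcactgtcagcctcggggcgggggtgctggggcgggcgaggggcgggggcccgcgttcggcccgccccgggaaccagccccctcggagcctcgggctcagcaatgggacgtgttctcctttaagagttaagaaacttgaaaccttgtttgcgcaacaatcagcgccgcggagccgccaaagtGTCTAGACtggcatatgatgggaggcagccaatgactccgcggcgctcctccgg
Smad9: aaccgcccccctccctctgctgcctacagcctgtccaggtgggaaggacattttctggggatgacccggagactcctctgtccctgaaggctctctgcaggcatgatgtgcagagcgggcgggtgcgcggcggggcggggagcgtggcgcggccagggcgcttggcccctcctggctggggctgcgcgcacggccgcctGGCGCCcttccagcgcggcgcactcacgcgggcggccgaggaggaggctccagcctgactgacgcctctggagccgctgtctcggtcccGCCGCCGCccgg
Id3: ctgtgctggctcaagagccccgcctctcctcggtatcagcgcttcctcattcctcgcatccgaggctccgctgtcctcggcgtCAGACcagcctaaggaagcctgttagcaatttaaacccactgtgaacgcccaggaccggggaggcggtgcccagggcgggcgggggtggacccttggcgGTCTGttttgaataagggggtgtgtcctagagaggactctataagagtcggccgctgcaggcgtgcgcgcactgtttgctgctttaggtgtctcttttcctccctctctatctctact

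The Bmp10 window held none of the 4 words. The Smad6 window held GTCTAGAC 4 bases before the start, a word found in 0.213% of the 32817 promoters of the table. Smad9 held GGCGCC 51 bases before and GCCGNCGC 38 bases after the start, words found in 11.9% and 9.76% of promoters. Id3 held CAGAC on each strand, 167 and 68 bases before the start, and 49.6% of promoters held this short word. Of the other promoters, those of Bmpr2 and Id2 held 1 GGCGCC each and that of Acvr1 held 2 overlapping GCCGNCGC. These matches describe letters in a window and are not evidence of binding.

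Bmp10, the ligand (chromosome 6, 87428994 to 87437677, plus strand, GRCm38), was among the most abundant transcripts of the right atrium and close to absent from the left. In right atria it measured 7678 and 8820 CPM in WT, 7218, 8136 and 7547 CPM in Het, and 8695, 9279 and 8507 CPM in KO. In left atria it measured 3.24, 3.87 and 0.972 CPM in WT, 4.88, 1.18 and 2.87 CPM in Het, and 2.40, 2.51 and 2.08 CPM in KO. The 2 atria did not overlap in any genotype, while the 3 genotypes overlapped within left atria. Bmp10 took between 0.781% and 0.949% of all counts of a right atrial library and ranked between 12 and 14 among all genes there, against 15 to 144 counts in total in a left atrial library. The left atrial values therefore rest on few reads and are the least precise in this set.

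The receptor gene Acvr1 (chromosome 2, 58388644 to 58567157, minus strand), which encodes the type I receptor ALK2, was lowest in WT left atria. It measured 30.9, 28.6 and 22.6 CPM in WT, 42.1, 41.5 and 42.6 CPM in Het, and 39.0, 39.3 and 38.2 CPM in KO left atria. In right atria it measured 56.1 and 51.0 CPM in WT, 58.9, 59.6 and 56.1 CPM in Het, and 68.4, 59.99 and 63.9 CPM in KO. Every mutant left atrium lay above every WT left atrium, and every right atrium lay above every left one. Acvrl1 (chromosome 15, 101128522 to 101145336, plus strand), which encodes ALK1, the receptor of BMP9 and BMP10 on endothelial cells, did not separate the atria. It ranged from 12.7 to 20.4 CPM in WT, 19.7 to 21.4 CPM in Het and 19.5 to 26.5 CPM in KO left atria, and from 16.3 to 23.6 CPM over all right atria. The lowest value, 12.7 CPM, was that of WT left atrium replicate 3. Bmpr2 (chromosome 1, 59763400 to 59879014, plus strand), the type II receptor gene, was the steadiest member, at 219 to 253 CPM in left atria and 196 to 280 CPM in right atria. Its highest 3 values, 266, 268 and 280 CPM, were those of the KO right atria. The gene spans of Acvr1, Acvrl1 and Bmpr2 each overlap that of another annotated gene in GENCODE M21 (Gm17409, Gm16031 and Gm38125). Whether exons overlap was not examined. The counting strand is not stated in the sources used, so reads of such pairs may not have been told apart.

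Smad7 (chromosome 18, 75367529 to 75395935, plus strand) encodes an inhibitory SMAD that acts on both the TGF-beta and the BMP branch. It measured 15.1, 17.7 and 17.2 CPM in WT, 34.6, 28.2 and 28.0 CPM in Het, and 30.3, 36.1 and 29.0 CPM in KO left atria. Right atria gave 56.3 and 57.6 CPM in WT, 65.7, 61.2 and 53.2 CPM in Het, and 62.4, 71.3 and 69.5 CPM in KO. The mutant left atria thus lay between the WT left atria and the right atria, with no overlap on either side.

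Smad6 (chromosome 9, 63953076 to 64022059, minus strand) encodes the inhibitory SMAD that acts mainly on BMP signals, and it spread more widely among mice. It measured 8.44, 11.7 and 6.22 CPM in WT, 17.3, 15.1 and 10.5 CPM in Het, and 12.8, 16.2 and 9.82 CPM in KO left atria. Right atria gave 52.9 and 40.3 CPM in WT, 55.1, 45.1 and 31.4 CPM in Het, and 39.4, 41.2 and 38.9 CPM in KO. The genotypes overlapped in both atria, and the lowest right atrium, 31.4 CPM in Het, lay above every left atrium. Smad9 (chromosome 3, 54755582 to 54801257, plus strand) encodes a SMAD that receptors activate, also known as SMAD8. It was the scarcest member after left atrial Bmp10, at 4.17, 3.02 and 3.95 CPM in WT, 4.37, 4.60 and 4.46 CPM in Het, and 3.54, 3.50 and 4.43 CPM in KO left atria. Right atria gave 27.5 and 26.5 CPM in WT, 20.2, 22.6 and 26.0 CPM in Het, and 20.0, 20.1 and 23.1 CPM in KO. Both WT right atria lay above all 6 mutant right atria.

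Id1 (chromosome 2, 152736251 to 152737410, plus strand) was lower in WT left atria, at 7.32, 9.18 and 7.71 CPM, than in any mutant left atrium. The Het left atria gave 11.1, 14.2 and 16.0 CPM and the KO left atria 10.3, 18 and 16.4 CPM. Right atria gave 31.5 and 25.8 CPM in WT, 27.7, 24.8 and 21.8 CPM in Het, and 24.8, 32.7 and 20.6 CPM in KO, with the genotypes overlapping. Id3 (chromosome 4, 136143497 to 136145755, plus strand) also had its lowest left atria in WT, with 17.7, 19.7 and 16.9 CPM in WT, 31.6, 27.4 and 25.3 CPM in Het, and 26.9, 33.5 and 20.4 CPM in KO. Its right atria gave 62.0 and 52.2 CPM in WT, 64.4, 54.3 and 45.1 CPM in Het, and 55.1, 58.3 and 39.2 CPM in KO. No mutant left atrium fell within the WT range of Id3, and the KO range of 20.4 to 33.5 CPM began just above it. Id2 (chromosome 12, 25093799 to 25097140, minus strand) was the Id gene with the most counts in every group mean. It measured 29.3, 26.7 and 13.9 CPM in WT, 48.3, 41.2 and 23.5 CPM in Het, and 43.6, 33.9 and 23.2 CPM in KO left atria. Right atria gave 91.9 and 72.4 CPM in WT, 93.6, 87.4 and 54.7 CPM in Het, and 93.7, 72.4 and 62.6 CPM in KO. WT and mutant left atria overlapped, and each mutant group held 1 library below the highest WT library.

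**Figure D1:**
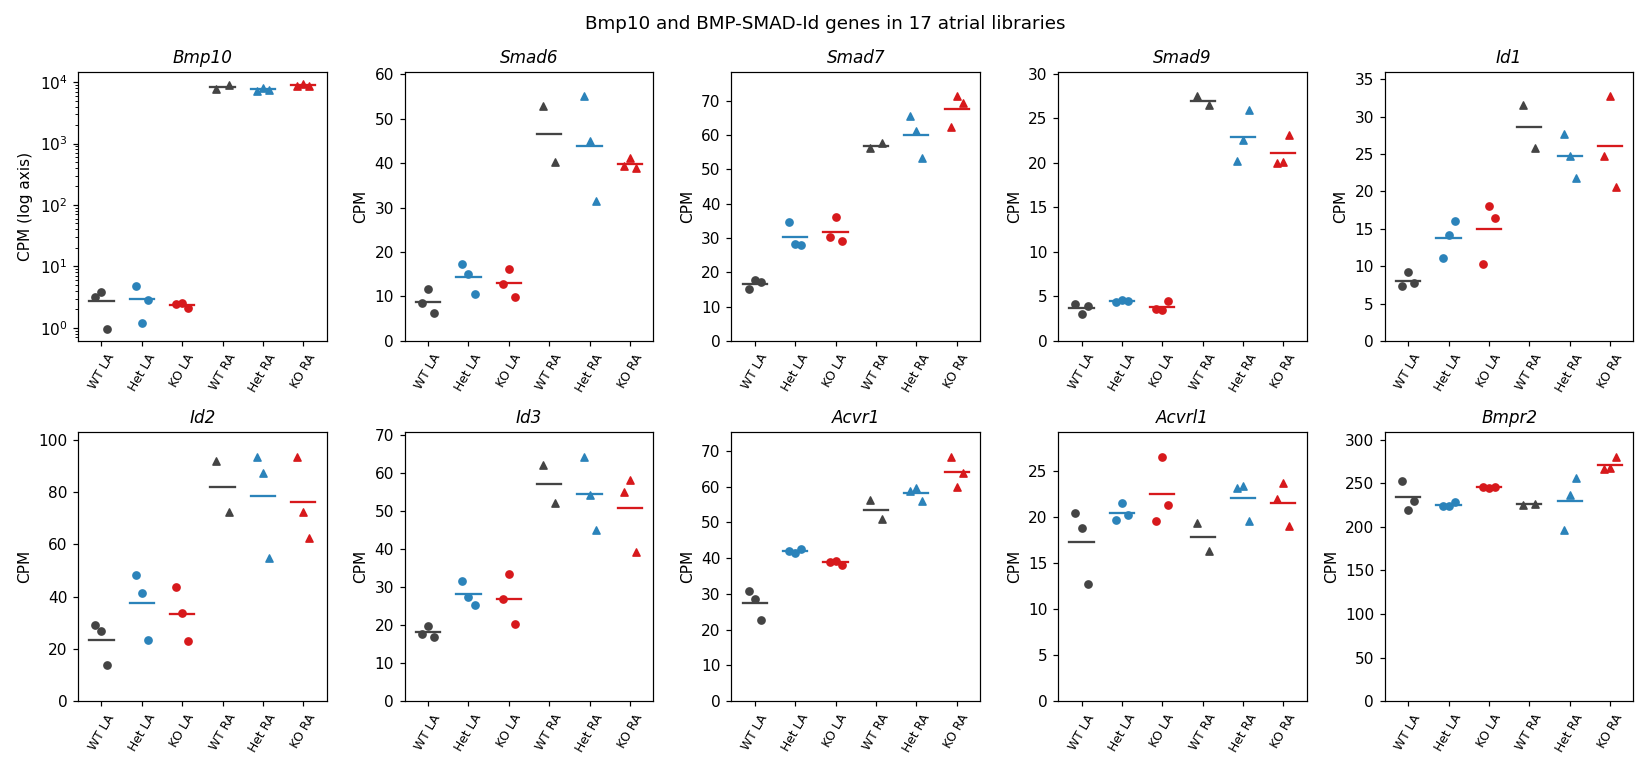
Level of each member in CPM (y axis, logarithmic for Bmp10 and linear from 0 for the others) in the 6 groups (x axis); points are libraries, circles left and triangles right atrium, and lines are group means. Bmp10 is at or above 7218 CPM in right and at or below 4.88 CPM in left atria, and Smad7, Id1, Id3 and Acvr1 lie lower in every WT left atrium than in every mutant left atrium.

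Per kilobase of exon, the order of levels in WT right atria was led by Bmp10 at 1840 ± 180 CPM per kb (SD, n = 2). Id2 at 33.7 ± 5.65, Id3 at 31.9 ± 3.87 and Id1 at 24.7 ± 3.53 CPM per kb followed, and the values of Id2 and Id3 lay within their spread of each other. Smad6 at 14.5 ± 2.79, Smad7 at 12.6 ± 0.212, Bmpr2 at 12.5 ± 0.00707 and Acvr1 at 11.1 ± 0.75 CPM per kb came next, and Smad6 and Smad7, like Smad7 and Bmpr2, lay within the larger SD of each pair. Smad9 at 5.03 ± 0.124 and Acvrl1 at 4.17 ± 0.5 CPM per kb were lowest. In WT left atria the order was headed by Bmpr2 at 13 ± 0.969 and Id3 at 10.1 ± 0.811 CPM per kb (SD, n = 3), and Bmp10, at 0.60 ± 0.339 CPM per kb, was last together with Smad9 at 0.692 ± 0.114.

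The first comparison asked how the right atrium differed from the left within each genotype. Tests used edgeR's quasi-likelihood method on the 18018 genes that passed a filter on low counts, and a gene is said to have passed where its Benjamini-Hochberg adjusted p over all of these genes was under 0.05. All 10 members passed the filter in every comparison. In WT, 8 of the 10 members were higher in the right atrium and none was lower, where 5.31% of all genes tested were higher. The same 8 members had both right atria above all 3 left atria, a separation found for 21.6% of genes.

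In WT the right-over-left log2 fold change was 11.50 (SE 0.47, edgeR adjusted p = 2.25e-08) for Bmp10, a 2890-fold difference. Among the SMAD genes it was 2.88 for Smad9 (adjusted p = 1.43e-09), 2.38 for Smad6 (adjusted p = 0.00021) and 1.77 for Smad7 (adjusted p = 4.46e-08), all from edgeR. Among the Id genes it was 1.82 for Id1 (edgeR adjusted p = 0.00024), 1.80 for Id2 (0.0099) and 1.65 for Id3 (0.00021). The Id2 result was lost when the shared WT right atrial library was left out (log2 1.62), which left 1 WT right atrium. With only the WT libraries fitted it did not pass either (edgeR adjusted p = 0.0505). Acvr1, at 0.96 (edgeR adjusted p = 4.7e-06), was the only receptor gene of the 3 to pass; Acvrl1 and Bmpr2 had adjusted p of 0.94 and 0.77.

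In Het mice 7 members were higher in the right atrium, where 3.32% of genes were, and in KO mice 7 were, where 3.66% of genes were. In both genotypes the member that passed in WT and not here was Id2, at log2 1.05 in Het (edgeR adjusted p = 0.092) and 1.18 in KO (0.055). With the mouse as a block for the paired atria, Id2 passed in both, in Het with edgeR adjusted p of 0.000287 or 4.54e-05 and in KO with 0.00013 or 1.72e-05, depending on the mouse given the shared WT library. DESeq2 and limma-voom also passed it in both. The right-over-left log2 fold change of Bmp10 was 11.31 in Het, or 2540-fold, and 11.89 in KO, or 3790-fold. Smad9 gave 2.36 in Het and 2.46 in KO, Smad6 1.60 and 1.62, and Smad7 0.99 and 1.09. Id1 gave 0.85 and 0.80, Id3 0.96 and 0.92, and Acvr1 0.47 and 0.72. Every right atrium lay above every left atrium for 8 members in Het and 9 in KO, the 9th being Bmpr2, where 11.5% and 12.8% of genes did. The Id1 result was lost in Het without left atrium replicate 1 or 2 or right atrium replicate 1 or 2 (edgeR adjusted p between 0.0554 and 0.0991). In KO it was lost without left atrium replicate 1 or 3 or right atrium replicate 1 or 2 (between 0.0507 and 0.123). With only the KO libraries fitted, Id1 (edgeR adjusted p = 0.152) and Id3 (0.0758) did not pass in KO.

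**Figure D2:**
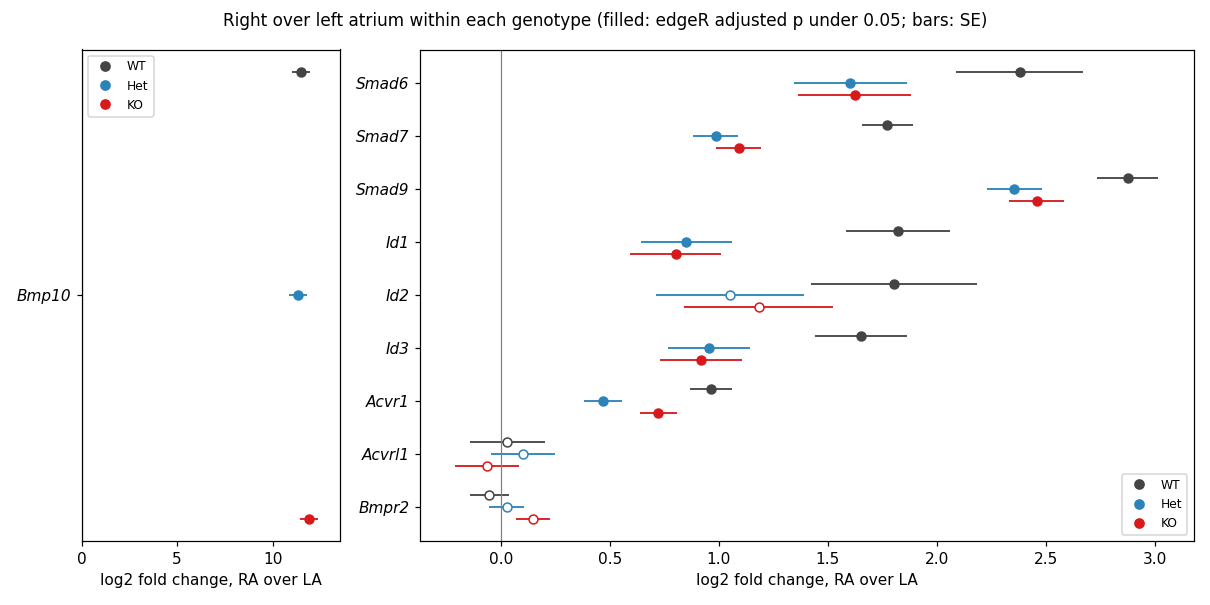
Log2 fold change of the right over the left atrium (x axis) for Bmp10 (left panel) and the other 9 members (right panel) in WT, Het and KO mice; bars are standard errors and filled points have an edgeR adjusted p under 0.05. Bmp10 lies between 11.31 and 11.89 in all 3 genotypes, and the WT points of Smad6, Smad7, Id1, Id2 and Id3 lie to the right of the mutant ones.

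The endothelial and endocardial marker list (10 genes, all tested) summed to 1060 to 1670 CPM in WT left and 1770 to 2090 CPM in WT right atria. The cardiomyocyte list (10 genes) summed to 61000 to 73900 and 56400 to 59200 CPM in the same groups. In WT, 2 of 10 endothelial markers were higher and 4 of 10 cardiomyocyte markers lower in the right atrium, where 5.31% and 6.56% of genes were. Their part in the members' differences between atria was not tested.

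The second comparison asked what differed in KO left atria against WT. Because this contrast was among the values known when the genes were chosen, its values are a description. Smad7 was higher in KO by log2 0.92 (SE 0.12), or 1.9-fold, Id1 by 0.87 (SE 0.21) and Acvr1 by 0.49 (SE 0.10). These 3 of 10 passed in edgeR, against 3.42% of genes that were higher, and none was lower. The other 7 did not pass. Their log2 fold changes were 0.56 for Id3, 0.53 for Smad6, 0.51 for Id2 and 0.36 for Acvrl1. That of Bmp10, -0.26 (SE 0.54), was smaller than its standard error, as were those of Smad9 and Bmpr2. Smad7, Id1, Id3 and Acvr1 had all 3 KO libraries above all 3 WT libraries, as did 15% of genes. The median log2 fold change of the 10 members was 0.50, and that of all genes tested was -0.002. Smad7 passed in all 18 alternative analyses. Id1 did not pass in 8 of them, with an edgeR adjusted p of up to 0.113 (without KO left atrium replicate 3); the libraries whose omission ended its call were WT replicates 1, 2 and 3, Het replicate 2 and KO replicates 2 and 3. Acvr1 did not pass without KO left atrium replicate 1 (edgeR adjusted p = 0.0505) or 3 (0.0519).

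The third comparison, Het against WT left atria, used the same WT libraries. Smad7 was higher by log2 0.85 (SE 0.12, edgeR adjusted p = 0.0056), Acvr1 by 0.60 (SE 0.10, 0.0077) and Id3 by 0.62 (SE 0.16, 0.044). These were 3 of 10 members, where 4.02% of genes were higher, and none was lower. Id1 gave 0.75 (edgeR adjusted p = 0.055), Smad6 0.68 (0.15), Id2 0.68 (0.31), Smad9 0.26 (0.35) and Bmp10 0.09 (0.93). None of these passed, nor did Acvrl1 and Bmpr2. All 3 Het libraries lay above all 3 WT libraries for Smad7, Smad9, Id1, Id3 and Acvr1, as they did for 16.6% of genes. Side by side, the KO and Het values over WT were 0.92 and 0.85 for Smad7, 0.87 and 0.75 for Id1, 0.56 and 0.62 for Id3, and 0.49 and 0.60 for Acvr1. With Xist as a covariate for sex, which nearly coincides with Het against WT, the log2 fold changes were 0.94 for Smad7, 0.59 for Acvr1 and 0.61 for Id3. None of them then passed in Het against WT (edgeR adjusted p = 0.241, 0.332 and 0.512), while Smad7, Id1 and Acvr1 still passed in that of KO with WT. Id3 in Het also failed to pass without WT replicate 1, 2 or 3, Het replicate 1, 2 or 3, or KO replicate 1 (edgeR adjusted p between 0.063 and 0.126).

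**Figure D3:**
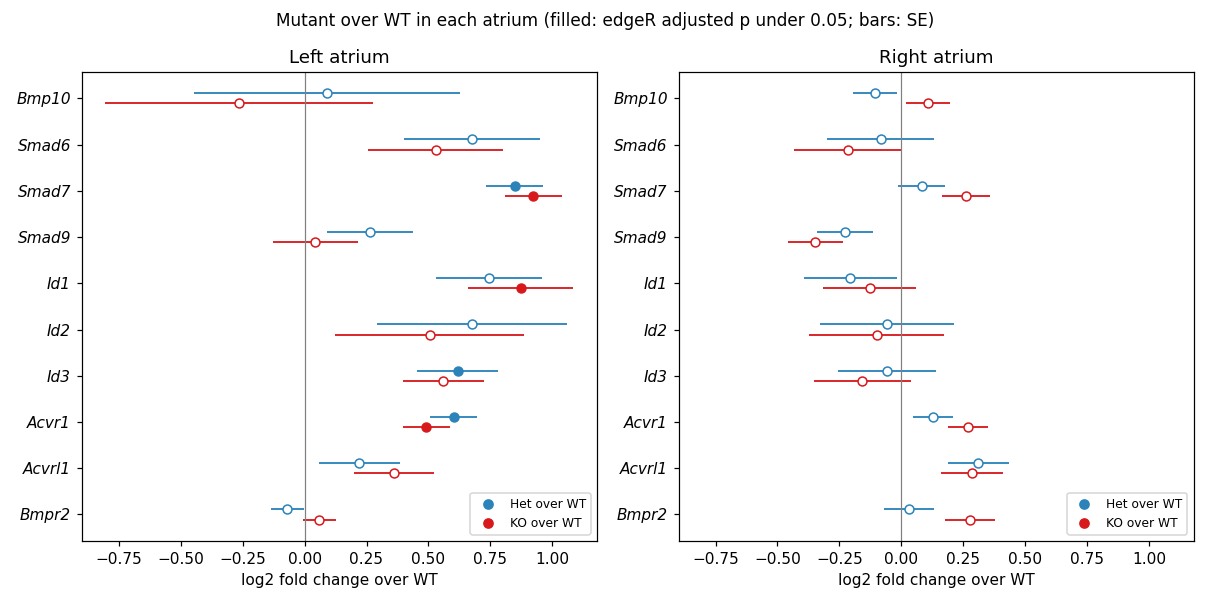
Log2 fold change over WT (x axis) of each member in Het and KO left atria (left panel) and right atria (right panel); bars are standard errors and filled points have an edgeR adjusted p under 0.05. In left atria Smad7, Id1, Id2, Id3, Smad6 and Acvr1 lie above 0 in both mutants, with Smad7 at 0.92 in KO and 0.85 in Het; no point in the right atrial panel is filled.

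Levels of other gene lists in the same left atria are given for comparison. The 8 immediate early genes (Fos, Fosb, Egr1, Junb, Jun, Atf3, Ier2 and Nr4a1), which rise within minutes of handling or stress, summed to 71.0 to 77.7 CPM in WT, 112 to 426 CPM in Het and 88.5 to 190 CPM in KO left atria. The top Het value was that of replicate 2 alone, as replicates 1 and 3 gave 112.2 and 113.5 CPM. The top KO value was that of replicate 3 alone, as replicates 1 and 2 gave 101.1 and 88.5 CPM. All 8 genes had positive log2 fold changes in both mutants, with medians of 0.92 in KO and 1.55 in Het, and 0 of 8 passed in edgeR. At an unadjusted p under 0.05 edgeR gave 0 of 8 in KO and 4 of 8 in Het, beside 4324 and 4568 of all 16974 genes tested. DESeq2 passed 0 and 1, and limma-voom 0 and 0. In right atria the same sum was 94.0 to 104 CPM in WT, 90.8 to 97.0 CPM in Het and 98.5 to 122 CPM in KO. The part of this list in the members' differences was not tested.

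Endothelial markers summed to 1060 to 1670 CPM in WT, 1720 to 2080 CPM in Het and 1580 to 1780 CPM in KO left atria. Kdr was the 1 of 10 that passed in each mutant, as higher, where 3.42% of genes were higher in KO and 4.02% in Het. Fibroblast markers (8 genes) summed to 934 to 2420, 2460 to 3280 and 2050 to 3100 CPM in the same order. Macrophage markers (8 genes) summed to 87.3 to 388, 343 to 470 and 342 to 347 CPM. The lowest WT value of these 3 lists was that of WT left atrium replicate 3 each time (1057, 934 and 87.3 CPM), while replicates 1 and 2 gave 1671 and 1546, 1912 and 2421, and 354 and 388 CPM. That library also had the lowest WT value of Acvr1, Acvrl1, Id2, Id3, Smad6 and Bmp10. Smad7 was not lowest in that library, and without the library its log2 fold change in KO was 0.95 and still passed in edgeR. Acvr1 also still passed in both mutants. Id1 in KO (0.85, edgeR adjusted p = 0.105) and Id3 in Het (0.59, 0.126) no longer passed. Cardiomyocyte markers summed to 61000 to 73900 CPM in WT, 54300 to 58300 CPM in Het and 57000 to 62400 CPM in KO. In Het, the fibroblast marker Tcf21 (log2 1.07) passed as higher. The cardiomyocyte markers Ckm (-0.45) and Ttn (-0.48) passed as lower there, where 5.38% of genes were lower. In KO, 0 of 8 fibroblast and 0 of 10 cardiomyocyte markers passed in edgeR, with 2 and 0 in DESeq2, and 1 and 0 in limma-voom. At an unadjusted p under 0.05 edgeR gave 2 and 3 there, beside 4324 of all 16974 genes tested. The part of these marker lists was not tested either.

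In right atria no member passed in edgeR in either mutant, where 0.523% of genes passed in KO against WT and 0.57% in Het against WT. At an unadjusted p under 0.05 edgeR gave 5 members in KO and 1 in Het, beside 2508 and 2458 of all 17201 genes tested. DESeq2 and limma-voom also passed 0 members. In KO, Smad9 gave log2 -0.35 (edgeR adjusted p = 0.178), Acvr1 0.27 (0.158), Bmpr2 0.28 (0.231) and Smad7 0.26 (0.239). Smad7, Acvr1 and Bmpr2 in all 3 KO right atria lay above both WT libraries, and Smad9 lay below both; groups did not overlap, in either direction, for 37% of genes. In Het, Smad9 gave -0.23 (edgeR adjusted p = 0.384) and Acvrl1 0.31 (0.276), and these 2 members were the ones that did not overlap with WT, where 33.2% of genes did not. The Bmpr2 difference in KO passed (edgeR adjusted p = 0.0465) when only WT and KO right atria were fitted. The median log2 fold change of the members was 0.004 in KO and -0.06 in Het right atria.

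KO and Het were also compared with each other. No member passed in either atrium, where 0% of genes passed in left and 0% in right atria in edgeR. At an unadjusted p under 0.05 edgeR gave 0 members in left atria and 2 in right atria, Bmp10 and Bmpr2 (edgeR adjusted p = 0.778 for each). Over all genes tested, 771 of 16974 in left and 1077 of 17201 in right atria lay under that unadjusted p. DESeq2 and limma-voom also passed 0 members. In right atria Bmp10 was 8830 ± 403 CPM in KO and 7630 ± 465 CPM in Het, and Bmpr2 was 271 ± 7.96 and 229 ± 30.3 CPM (SD, n = 3 each).

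The last comparison asked whether the right-left difference itself changed with genotype. In every mutant mouse the difference between its own 2 atria was smaller than in either WT pair for 7 members, Smad6, Smad7, Id1, Id2, Id3, Smad9 and Acvr1. The signed value, right minus left, was lower in every mutant mouse than in both WT pairs for 15.4% of genes in KO and 15.5% in Het. These shares can include genes higher in left atria whose difference was larger in mutants. Only 2 WT pairs were there to set against. WT pair 1 used the shared right atrial library, whose mouse is not known. For Smad7 the log2 difference was 1.74 and 1.89 in the 2 WT pairs, 0.92 to 1.12 in Het and 0.98 to 1.26 in KO mice. For Smad6 it was 2.64 and 2.68 in WT, 1.57 to 1.67 in Het and 1.34 to 1.98 in KO. For Id3 it was 1.62 and 1.81 in WT, 0.83 to 1.03 in Het and 0.80 to 1.03 in KO, and for Id1 it was 1.73 and 2.10, 0.45 to 1.31 and 0.32 to 1.26. Id2 gave 1.65 and 2.37 in WT, 0.95 to 1.22 in Het and 1.09 to 1.43 in KO. Smad9 gave 2.7 and 2.72 in WT, 2.19 to 2.52 in Het and 2.36 to 2.50 in KO, and Acvr1 0.86 and 1.17, 0.40 to 0.52 and 0.61 to 0.81. Bmp10 differed from these, at 11.18 and 13.04 in WT, 10.51 to 12.66 in Het and 11.78 to 11.95 in KO, so that the genotypes overlapped.

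In a fit without the mouse as a term, 0 members passed for either mutant, as did 0% of genes in KO against WT and 0% in Het against WT in edgeR. At an unadjusted p under 0.05 edgeR gave 4 members in KO and 5 in Het, beside 711 and 786 of all 18018 genes tested. DESeq2 and limma-voom passed 0 members. The fitted difference from WT was -0.68 for Smad7 in KO (edgeR adjusted p = 0.995) and -0.79 in Het (0.82), -1.02 and -0.97 for Id1, -0.74 and -0.70 for Id3, -0.76 and -0.78 for Smad6, and -0.62 and -0.75 for Id2. Smad9 gave -0.42 and -0.52, and Acvr1 -0.24 and -0.49.

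Since the 2 atria came from the same mouse, the mouse was also fitted as a block, once with the shared library as WT mouse 1 and once as WT mouse 2. For KO against WT these fits passed 0.0444% and 0.544% of genes in either direction, and for Het against WT 0.117% and 0.855%. For KO against WT, Smad7 then passed under both assignments (-0.73, edgeR adjusted p = 0.0217, and -0.61, 0.0164), as did Id3 (-0.80, 0.0164, and -0.72, 0.00483), and Smad6 passed under the first (-1.03, 0.0287). For Het against WT, Smad7 (-0.83, 0.00676, and -0.71, 0.00516) and Id3 (-0.77, 0.00831, and -0.69, 0.00516) passed under both. Smad6 (-1.06, 0.0139) passed under the first assignment alone, and Id2 (-0.96, 0.0333) and Acvr1 (-0.60, 0.00843) under the second alone. Both mutants were compared with the same 2 WT pairs, so their results are not independent. The right-left change also contains the left atrial difference from WT, which for KO was known when the genes were chosen. Its values are therefore given as a description too.

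Other genes of the pathway were counted in lists. Of 10 further BMP response genes that passed the filter in left atria alone, 6 were higher in WT right than left atria, where 5.31% of genes were, among them Hamp, which encodes the iron hormone hepcidin (log2 7.69), Atoh8, a basic helix-loop-helix factor gene (2.16), Hey1, a Notch and BMP target (1.64), and Unc5b, a netrin receptor gene (1.62). Hamp measured 66.5 and 90.4 CPM in WT, 32.2, 39.9 and 35.8 CPM in Het and 18.4, 47.9 and 62.8 CPM in KO right atria, and at most 0.616 CPM in any left atrium. All 6 mutant right atria lay below both WT right atria for Hamp, a difference that did not pass in edgeR in either mutant. Right atria of mutant and WT did not overlap, in either direction, for 37% of genes in KO and 33.2% in Het. Hamp has a close copy, Hamp2, so its reads may be divided between the genes.

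Of 10 other BMP ligand genes tested, Bmp5 (log2 2.55) and Gdf10 (1.64) were higher and Bmp3 (-0.95) lower in WT right atria. Over all genes tested there, 5.31% were higher and 6.56% lower, and each list of this paragraph is to be read beside these shares. Of 10 receptor and co-receptor genes, the co-receptor genes Eng (1.05) and Tgfbr3 (0.44) were higher and Hjv (-0.26) lower. Among 10 antagonists, Chrdl1 (0.64) was higher and Chrd (-1.43), which encodes chordin, lower, which is only 1 gene in each direction. Of 5 SMAD mediators 0 passed in edgeR, with 1 at an unadjusted p under 0.05 and 0 in DESeq2 or limma-voom. Over all genes, 4529 of 18018 lay under that unadjusted p. Of 8 genes of SMAD turnover and corepression the corepressor genes Skil (0.74) and Ski (0.40) were higher.

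In left atria 7 of the 53 genes tested from the 6 lists passed in KO against WT and 6 in Het, where 7.81% and 9.4% of all genes passed in either direction. Skil measured 31.1, 31.1 and 27.1 CPM in WT, 48.2, 57.8 and 45.9 CPM in Het, and 45.4, 46.6 and 54.0 CPM in KO left atria, with log2 fold changes over WT of 0.75 in Het and 0.70 in KO. Ski measured 106, 106 and 89.8 CPM in WT, 138, 139 and 146 CPM in Het, and 133, 159 and 136 CPM in KO, with fold changes of 0.47 and 0.49. Unc5b measured 10.3, 12.0 and 10.2 CPM in WT, 16.7, 17.4 and 18.9 CPM in Het, and 18.1, 17.7 and 15.2 CPM in KO, with fold changes of 0.68 and 0.63. All mutant left atria lay above WT for these 3 genes, which were chosen for passing; 15% of genes in KO and 16.6% in Het lay so.

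In KO left atria 3 of 8 turnover and corepressor genes were higher (Skil, Ski and Smurf2, the last at log2 0.30), 2 of 10 further response genes (Unc5b and Hey1, at 0.57), 1 of 5 SMAD mediators (Smad5, at 0.25) and 1 of 10 antagonists (Twsg1, at 0.24). In Het left atria the counts were 2 of 8 (Skil and Ski), 2 of 10 (Unc5b and Gja4, at 0.85), 1 of 5 (Smad5, at 0.23) and, of the antagonists, 0 of 10 in edgeR (3 at an unadjusted p under 0.05, 1 in DESeq2 and 0 in limma-voom). Of 10 ligand genes 0 passed in edgeR in either mutant, with 2 at an unadjusted p under 0.05 in each and 0 in DESeq2 or limma-voom. Of 10 receptor genes Hjv (log2 -0.29) was lower in Het, and 0 passed in KO in edgeR, with 3 at an unadjusted p under 0.05, 2 in DESeq2 and 1 in limma-voom. In right atria 0 of the 53 genes tested from these 6 lists passed in edgeR in either mutant. At an unadjusted p under 0.05 edgeR gave 10 in KO and 12 in Het, beside 2508 and 2458 of all 17201 genes tested. DESeq2 passed 3 and 1, and limma-voom 0 and 0. In left atria 4324 of all 16974 genes tested in KO and 4568 in Het lay under that unadjusted p.

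**Figure D4:**
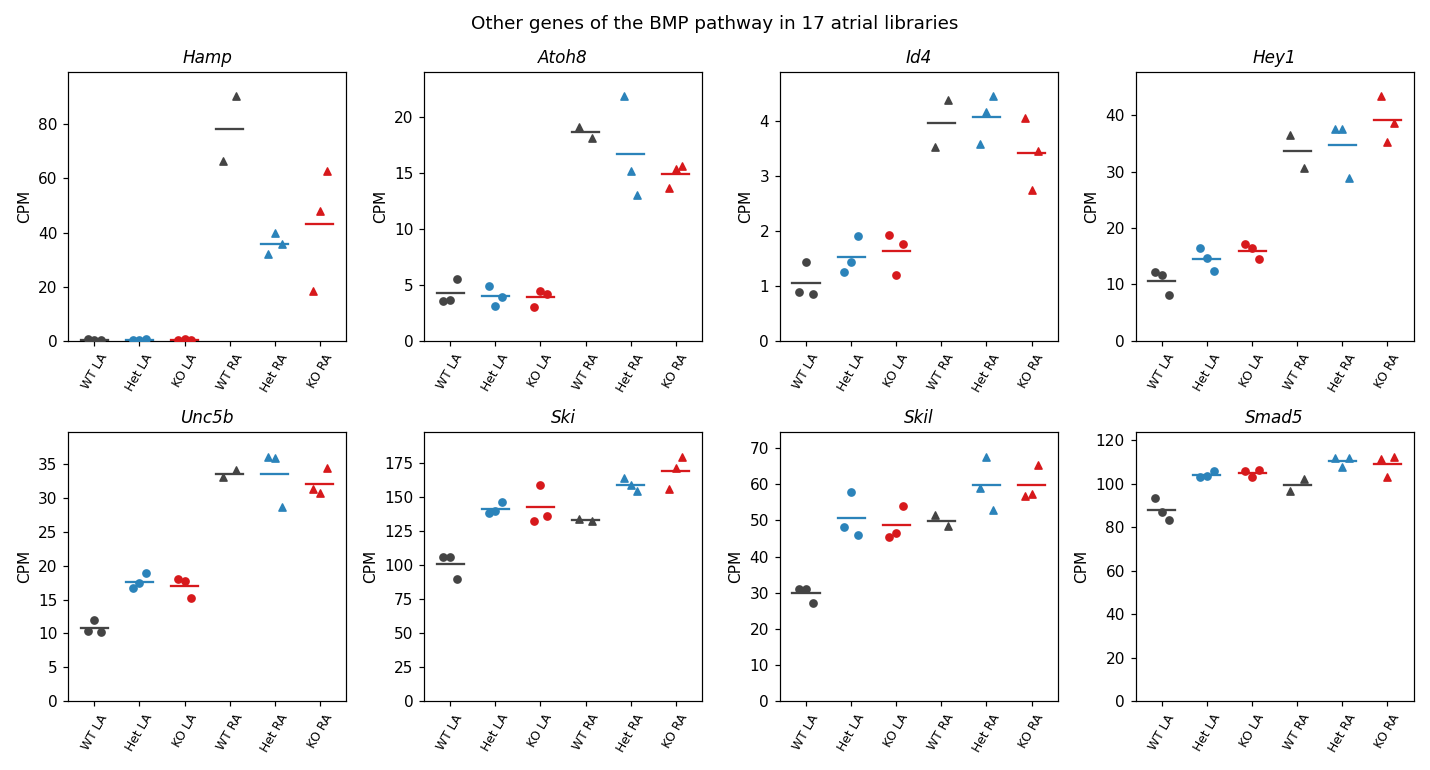
Level in CPM (y axis, from 0) of 8 other genes of the pathway in the 6 groups (x axis); points are libraries, circles left and triangles right atrium, and lines are group means. Hamp reaches at most 0.616 CPM in left atria, and Unc5b, Ski, Skil and Smad5 lie lower in every WT left atrium than in every mutant left atrium.

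Genes were ranked by how closely their log2 CPM followed that of Bmp10 over the 17 libraries, among the 10329 named genes whose mean reached 5 CPM. The 3 most alike were Sbf2 (Pearson r = 0.987), A2m (0.987) and Hamp (0.986). Among the members the values were 0.983 for Smad9, 0.939 for Smad6, 0.899 for Id3, 0.892 for Smad7, 0.864 for Id2, 0.859 for Acvr1, 0.84 for Id1, 0.208 for Bmpr2 and 0.162 for Acvrl1. These values mostly restate the difference between atria, since the libraries fall into 9 left and 8 right atria. The genes most like Id1 were Smad7 (0.928), Unc5b (0.925) and Id3 (0.921).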

How the data were processed

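The deposited file held raw counts per gene and library, made by the authors with STAR 2.7.9a on mm10 per the submitters' processing notes, which also name DESeq2 1.30.1. No source used here gives the counter, its strand setting or the annotation release. Libraries were prepared with mRNA enrichment per the labels' protocols. IDs were matched without version to GENCODE M21 (52073 of 56691), which gave symbols and GRCm38 coordinates; unmatched IDs took 0.418% to 2.63% of counts. Tests used edgeR 4.0.16 (R 4.3.3) with a minimum count of 10, TMM scaling and quasi-likelihood fits of the 9 left atria (16974 genes), the 8 right atria (17201) or all 17 libraries (18018), with Benjamini-Hochberg adjustment over all genes. DESeq2 1.42.0, limma 3.58.1, other scaling, no filter, left-out libraries, blocks and a Xist covariate were alternatives. The analysis was tested on simulated data.

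The members and the 19 gene lists were chosen with earlier results of these data known, so adjusted p-values of members describe size against spread and are not independent evidence. All members were tested in every comparison, and those not named in a comparison did not pass there in edgeR. From the lists described, at most 4 passing genes with the smallest p are named. Replicates are separate mice by their IDs; the pairing of atria comes from the same IDs. Deviations of the 2 atria of a mouse from their group means correlated at r = 0.158 to 0.411 over genes.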

Additional observations from a re-analysis of the deposited data

How the results depend on the processing

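The number of members that passed moved with the processing, and so did the number over all genes. Over the alternatives other than left-out libraries, 546 to 2350 genes passed in KO against WT left atria and 0 to 2786 in Het. In KO against WT right atria 27 to 909 passed. For the change in the right-left difference the ranges were 0 to 140 in KO and 0 to 163 in Het. The counts of members below are to be read beside these ranges. For KO against WT left atria (3 members), 5 passed without the filter on low counts and 2 to 3 when 1 library was left out. For Het against WT left atria (3), DESeq2 passed 5, the Xist covariate left 0 with fold changes of similar size (Smad7 0.94, Acvr1 0.59, Id3 0.61), and leaving out 1 library gave 2 to 3. In KO against WT right atria (0), 1 passed without the filter and 1 when only these groups were fitted. For the change in the right-left difference (0 in each mutant), 5 passed without the filter in KO and 5 in Het. For right against left in KO, 5 members passed when only the KO libraries were fitted. Leaving out 1 library gave 7 to 8 members for right against left in WT, 6 to 7 in Het and 6 to 8 in KO, and 0 in the other comparisons.

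With the mouse as replicate block, the right-left change passed for 3 or 2 members in KO and 3 or 4 in Het, depending on which WT mouse the shared library was given to. The labels' replicate numbers do not link mice across genotypes (correlations from -0.105 to 0.144). With the number as block, 6 members passed in KO and 6 in Het left atria. These counts, too, are to be read beside the ranges over all genes given above.

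A selection of 60 member fold changes, not all of them, was followed over the alternatives. Of their 1326 alternative values, 1235 kept direction and side of the threshold, 54 newly passed, 33 ceased to pass and 4 turned direction. All 4 were left atrial Bmp10, which rests on 15 to 144 counts: over left-out libraries it ran from -0.61 to 0.10 in KO and from -0.50 to 0.48 in Het, and limma-voom gave -0.02 in Het. Fold changes outside the selection also turned direction. Against WT in right atria, Id1 in KO ran from -0.33 to 0.03 and Id2 in Het from -0.50 to 0.15, and neither passed in any alternative. The causes were not tested. Only 2 WT right atria were available to the right-left and right atrial comparisons.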

Other observations

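Of 7 cardiac regulators tied to Bmp10, 3 passed in edgeR in KO against WT left atria, where 7.81% of genes passed in either direction. Tbx20 (log2 0.39) and Tbx5 (0.28, edgeR adjusted p = 0.049) were higher and Tcap, which encodes the titin-cap protein telethonin, was lower (-0.96). In Het left atria 0 of 7 passed in edgeR, with 2 at an unadjusted p under 0.05, 2 in DESeq2 and 0 in limma-voom. Tbx20 was also higher in the right than the left atrium in all 3 genotypes, by log2 0.76 in WT, 0.75 in Het and 0.75 in KO. Of 7 basic helix-loop-helix partners of the Id proteins, 0 passed in edgeR in KO or Het left atria, and 0 in DESeq2 or limma-voom. At an unadjusted p under 0.05 edgeR gave 1 in KO and 2 in Het. Over all genes tested in left atria, 4324 of 16974 in KO and 4568 in Het lay under that unadjusted p.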
